A study of Mus musculus with 10 samples.

Results

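Depletion of the ATPase of the INO80 complex was set against depletion of its accessory subunit Ino80b in J1 cells, a line of mouse embryonic stem cells. The comparison used the 2 arrays labelled Ino80 siRNA and the 2 labelled Ino80b siRNA, 4 of the 10 arrays of the series, and they were chosen by their titles and not by any measured value. Small interfering RNAs (siRNAs) are short duplexes that direct the cell to cut a matching messenger RNA. All groups were transfected in M15 medium, after maintenance in ESGRO medium, and harvested 96 hours (day 4) later. The other 6 arrays held cells given a non-targeting siRNA (NT) and cells given Ino80c or Ino80e siRNA, in 2 arrays each. The design text calls the 2 samples of a group biological replicates. By the series title, the study asked how INO80 takes part in the network that keeps these cells self-renewing.

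INO80 is a chromatin remodeller that slides and spaces nucleosomes with energy from ATP. Its Ino80 subunit is the ATPase and scaffold on which the other modules assemble, Ino80b is an accessory subunit of its conserved core, and the DNA-binding factor Yy1 joins the mammalian complex. In embryonic stem cells the complex is known from the promoters of pluripotency genes, where it keeps DNA open to the transcription machinery.

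The probes that read each siRNA target are shown first, because they check the labels. Each is 60 bases long, is written 5′ to 3′ as the scanner files give it, and lies on the minus strand of mouse build mm7. The Ino80 probes lie at chr2:119123739-119123798 and chr2:119147677-119147736, and the Ino80b probe at chr6:83149452-83149511; the files give no exon for them. A further Ino80 probe, the brightest of the gene, lies at chr2:119114157-119114216.
Ino80, first probe: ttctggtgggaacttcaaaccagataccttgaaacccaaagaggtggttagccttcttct
Ino80, second probe: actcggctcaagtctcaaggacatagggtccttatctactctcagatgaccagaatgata
Ino80b: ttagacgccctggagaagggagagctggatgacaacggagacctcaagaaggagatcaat

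All levels below are log2 signals relative to the 75th percentile of the same array, so a level of 0 is as bright as that percentile, and a difference of 1 is 2-fold. A gene is represented by its brightest probe. A gene counts as called where limma's moderated test gave p under 0.05 after Benjamini-Hochberg adjustment over the 20656 genes tested, and an error (±) is the standard error of that fit, with n = 2 arrays in each group. On the Ino80 arrays Ino80 read 1.29 and 1.09, against 2.71 and 2.71 on the Ino80b arrays and 2.43 and 2.35 with NT. Both Ino80 siRNA arrays were thus below all the others, and the groups did not overlap. Ino80 fell by 1.52 ± 0.13 on the log2 scale, 2.86-fold, relative to the Ino80b arrays (adjusted p = 0.0193). The first and second probes printed above gave differences of -1.42 and -1.21, but differed in their place relative to the other groups. The first read -0.42 and -0.21 with Ino80 siRNA, 0.30 and 0.00 with NT and 1.10 and 1.11 with Ino80b siRNA. Its Ino80b arrays thus lay above NT. The second read -2.18 and -2.18 with Ino80 siRNA, and Ino80e replicate 2 was lower still, at -2.35.

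Ino80b read -3.05 and -3.52 on the arrays of its own siRNA and -1.51 and -0.46 on the Ino80 arrays, again without overlap. The NT arrays read -1.40 and -1.17. Ino80b was 2.30 ± 0.35 higher on the log2 scale with Ino80 siRNA than with its own, a difference that was not called (adjusted p = 0.135). It passed in the same limma fit under normexp background correction (1.61, adjusted p = 0.0329) and with a trended, robust prior (2.30, adjusted p = 0.0278), while adjusted p ranged from 0.0278 to 0.528 over 22 alternatives. The Ino80 replicates differed from each other in Ino80b by more than the other groups' replicates did in the values given here. On the Ino80c arrays the same probe read -2.41 and -2.37, and on the Ino80e arrays -2.44 and -2.90, all below NT.

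Ino80c and Ino80e were not called, with differences of -0.24 (95% interval from -0.61 to 0.12) and -0.39 (-1.04 to 0.25). Of the 16 genes listed for the complex 15 were tested, and Ino80 alone was called. Beside the 2 targets, Actl6a, an actin-related subunit shared with other complexes, passed an unadjusted p under 0.05 and was not called (-0.29 ± 0.12). The ATPases Ruvbl1 and Ruvbl2 had differences of -0.10 and -0.01, and Yy1 of -0.08. The median difference of the 15 genes was -0.09, against 0.02 over all genes.

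The 4 arrays lay on 1 slide and were read in 1 scan, Ino80 at positions 1 and 2 and Ino80b at positions 3 and 4, so position and group cannot be told apart. NT was on another slide and Ino80c and Ino80e on the third, so values set beside those groups also differ by slide. Of 41174 non-control probes, 78.9% were well above background on Ino80 replicate 1, which stood apart from the other 3 arrays at 66.4% to 66.8%. The 75th percentile was 942 and 839 intensity units on the Ino80 arrays and 785 and 703 on the Ino80b arrays, and no spot was saturated. Log2 levels of the replicates correlated across genes, which are not independent, with r = 0.991 for Ino80 and 0.993 for Ino80b. The number of arrays limits the precision.

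Between the 2 knockdowns 14 genes were called, 0.0678% of those tested: 12 lower (0.0581%) and 2 higher (0.00968%) with Ino80 siRNA. Of the 14, 10 were above background on all 4 arrays, and all of these were lower with Ino80 siRNA. They were Rhox5, Khdc3, Pla2g1b, Fgf18, Foxa2, Fbp1, Nrcam, Itpr2, Myo1f and Ino80 itself. The other 4, among them both genes called higher, entered the test only through the group in which they were bright. In the same fit 2532 genes (12.3%) were called between Ino80 and NT and 1325 (6.41%) between Ino80b and NT; these comparisons share the NT arrays and span slides.

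The count rested on single arrays. It was 6 without Ino80 replicate 1 and 2 without Ino80 replicate 2, 0 without Ino80b replicate 1 and 1 without Ino80b replicate 2, 9 without either NT array, 0 without either Ino80c array and 6 without either Ino80e array, and it was 0 when the 4 arrays were fitted alone. With 2 arrays against 2, an exact two-sided permutation test of 1 gene cannot go below p = 0.333.

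**Figure D1:**
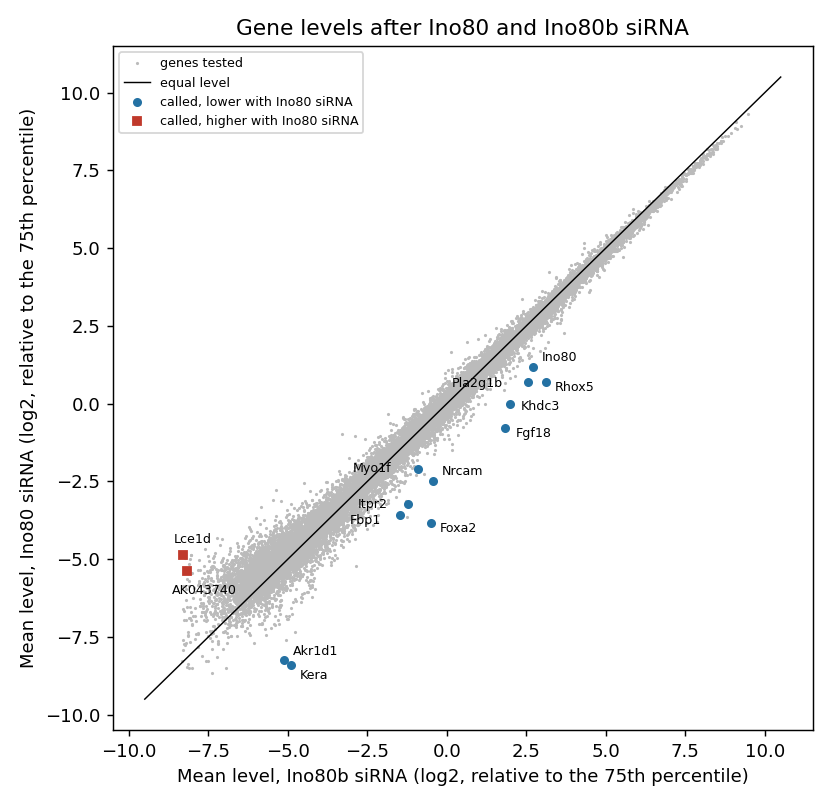
Mean log2 level of each of the 20656 genes tested (grey points) with Ino80b siRNA (x axis) and Ino80 siRNA (y axis), both relative to the array's 75th percentile; the line marks equal levels. The 12 genes called lower with Ino80 siRNA (blue circles) lie below the line and the 2 called higher (red squares) above it, at the dim end.

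Rhox5, Khdc3 and Fgf18 were lower on both Ino80 arrays than on each of the other 8 arrays. Their upstream sequences are printed because the 3 genes fell together yet differ widely in CG content. They are the 250 bases before the RefSeq transcription start, on GRCm38.p6, 5′ to 3′ on the gene's strand, with each CG in capitals. The stretch of Rhox5 (plus strand, chrX:37754358-37754607) holds 4 CG, that of Khdc3 (plus strand, chr9:73102148-73102397) holds 0 and that of Fgf18 (minus strand, chr11:33147401-33147650) holds 37.
Rhox5: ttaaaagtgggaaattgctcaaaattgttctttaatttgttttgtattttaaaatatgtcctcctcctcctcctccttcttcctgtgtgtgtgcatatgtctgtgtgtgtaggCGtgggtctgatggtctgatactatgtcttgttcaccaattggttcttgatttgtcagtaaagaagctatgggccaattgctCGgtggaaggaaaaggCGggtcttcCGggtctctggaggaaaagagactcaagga
Khdc3: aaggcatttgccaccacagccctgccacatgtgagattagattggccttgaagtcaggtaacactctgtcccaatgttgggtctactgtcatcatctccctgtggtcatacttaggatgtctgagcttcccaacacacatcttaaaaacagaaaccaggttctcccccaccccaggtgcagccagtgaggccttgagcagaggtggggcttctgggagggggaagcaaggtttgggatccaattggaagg
Fgf18: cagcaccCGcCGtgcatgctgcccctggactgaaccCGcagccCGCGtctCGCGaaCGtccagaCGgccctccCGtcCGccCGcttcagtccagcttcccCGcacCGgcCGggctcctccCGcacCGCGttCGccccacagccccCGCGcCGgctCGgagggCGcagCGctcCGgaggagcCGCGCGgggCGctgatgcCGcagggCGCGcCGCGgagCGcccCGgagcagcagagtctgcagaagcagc

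In windows running from 250 bases before to 50 bases after the start, RefSeq covered 13 of the 14 called genes with 15 windows. Neither the Yy1 core GCCATNTT nor the octamer ATGCAAAT, which Oct4 (Pou5f1) reads, was present on either strand in any of them. Over all 32851 windows, 6.05% held the first and 1.74% the second. CG occurred in 14 of the 15 windows and in 94.57% of all windows, where the median was 7.

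Rhox5, an X-linked homeobox gene known from germ cells and extraembryonic tissue, read 0.64 and 0.76 on the Ino80 arrays and 3.20 and 3.03 on the Ino80b arrays. The NT arrays read 3.07 and 2.66, so the Ino80b arrays lay beside NT and the Ino80 arrays far below both. Rhox5 fell by 2.42 ± 0.20, or 5.33-fold, relative to Ino80b siRNA (adjusted p = 0.0193). Its difference ran from -2.50 to -2.22 over 22 alternatives. As with every called gene, the call was lost in some of them.

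Khdc3 encodes a KH-domain protein of the oocyte and early embryo that also guards genome stability in stem cells. It read -0.18 and 0.13 with Ino80 siRNA, against 2.05 and 1.95 with Ino80b siRNA and 2.38 and 2.20 with NT. The groups did not overlap, and the difference was -2.02 ± 0.19 (4.06-fold, adjusted p = 0.0257). Ino80c siRNA gave 1.25 and 1.11, between those of Ino80 and Ino80b siRNA, and Ino80e siRNA gave 1.95 and 2.39, near NT.

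Fgf18, a secreted ligand of FGF receptors, read -0.57 and -1.03 with Ino80 siRNA and 2.03 and 1.63 with Ino80b siRNA, beside 1.79 and 1.36 with NT. Its difference was -2.62 ± 0.27 (6.17-fold, adjusted p = 0.0431). Pla2g1b, a secreted phospholipase A2, was also lowest with Ino80 siRNA. It read 0.79 and 0.60 with Ino80 siRNA, 2.66 and 2.44 with Ino80b siRNA and 2.85 and 2.67 with NT, a difference of -1.85 ± 0.17 (3.61-fold, adjusted p = 0.0235). Set against NT, Fgf18 differed by -2.37 with Ino80 siRNA and by 0.26 with Ino80b siRNA, and Pla2g1b by -2.06 and -0.21.

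Foxa2, a forkhead factor that specifies endoderm, read -3.71 and -3.96 on the Ino80 arrays and -0.28 and -0.70 on the Ino80b arrays. The NT arrays read -1.37 and -2.31, so NT lay between the knockdowns. The difference of -3.34 ± 0.32 (10.1-fold, adjusted p = 0.0302) was the largest among called genes above background on all 4 arrays. Fbp1, an enzyme of gluconeogenesis, was placed in the same way. It read -3.64 and -3.49 with Ino80 siRNA, -1.63 and -1.29 with Ino80b siRNA and -2.10 and -2.76 with NT (-2.11 ± 0.23, adjusted p = 0.0431). With Ino80c siRNA Fbp1 read -0.55 and -0.62, above the Ino80b arrays.

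For Nrcam and Itpr2 the Ino80b arrays lay farther from NT than the Ino80 arrays did. Nrcam, a neuronal adhesion molecule, read -0.73 and -0.15 with Ino80b siRNA, -2.55 and -2.41 with Ino80 siRNA and -1.79 and -2.02 with NT (-2.04 ± 0.21, adjusted p = 0.0415). With Ino80c siRNA Nrcam read -0.89 and -0.68, also above NT. Itpr2, a calcium channel of the endoplasmic reticulum gated by inositol trisphosphate, read -1.21 and -1.24 with Ino80b siRNA, against -3.33 and -3.14 with Ino80 siRNA and -2.87 and -3.25 with NT. Its difference was -2.01 ± 0.16 (adjusted p = 0.0193), but other kept probes of Itpr2 gave -0.95, 0.86 and 1.40. With the mean of its probes the difference was -0.17.

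Myo1f, an unconventional myosin known from blood cells, was below NT in both knockdowns and lower with Ino80 siRNA. It read -2.01 and -2.17 with Ino80 siRNA, -0.91 and -0.92 with Ino80b siRNA and 0.85 and 0.69 with NT. The difference between the knockdowns was -1.18 ± 0.13 (2.26-fold, adjusted p = 0.0431). In these bulk samples fewer cells that express a gene and less RNA per cell cannot be told apart.

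**Figure D2:**
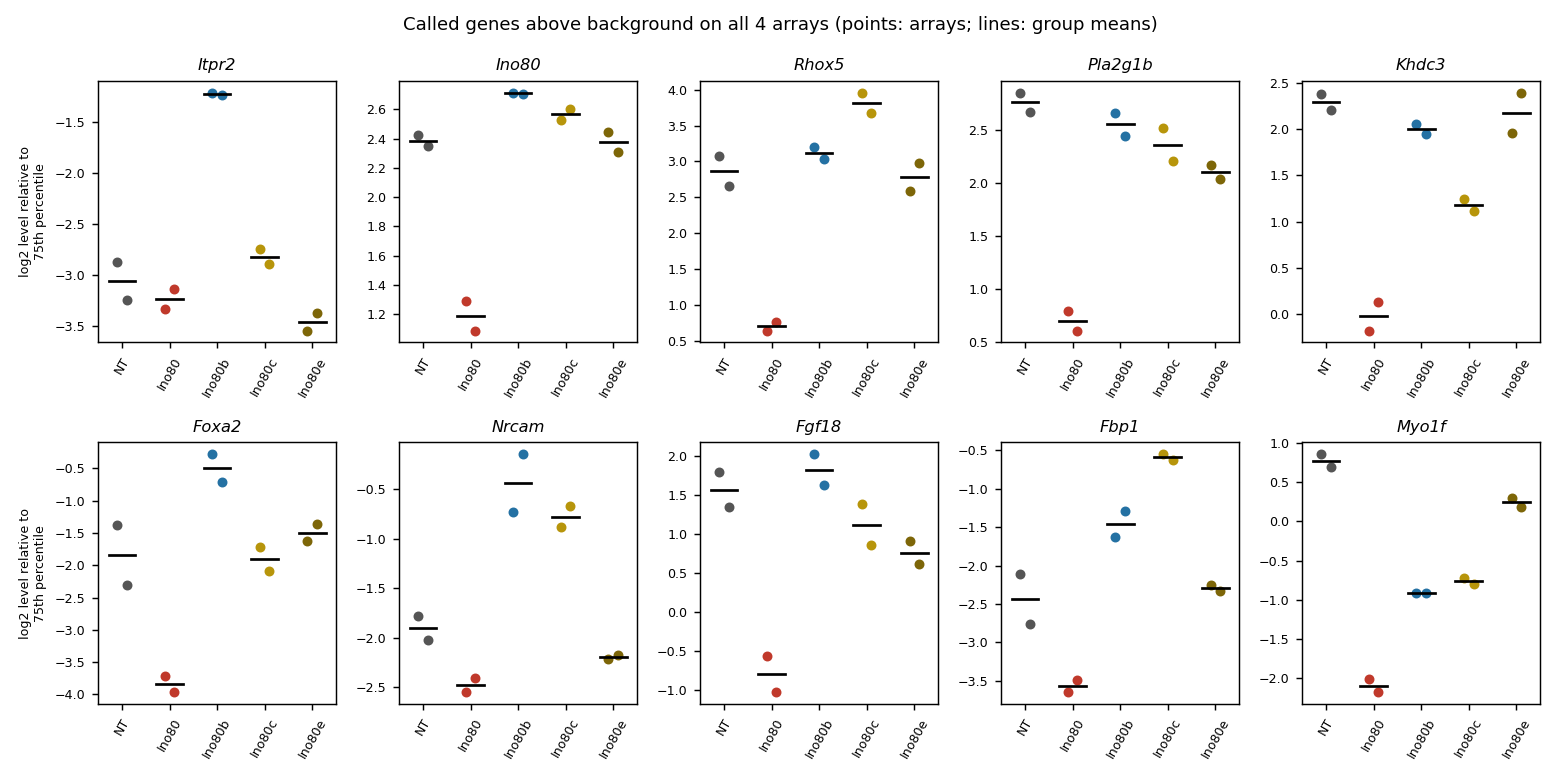
Log2 level relative to the 75th percentile (y axis, own range per panel) on each of the 10 arrays, by siRNA (x axis), for the 10 called genes above background on all 4 arrays compared; points are arrays and lines are group means. The Ino80 arrays lay below all others in each panel except that of Itpr2, and the Ino80b arrays lay above all others for Itpr2, Foxa2 and Ino80.

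The other 4 called genes were dim. In each, 1 group was not well above background on either array. A lower bound of the fold is therefore given, from the bright group's mean against the dimmest signal counted as above background. A gene was tested only if some group was above background on both arrays. Each of these 4 passed through its bright group alone. Their calls thus drew on the values that admitted them, give no separate support, and are printed without p-values. Akr1d1, a steroid reductase of bile acid synthesis, and Kera, a proteoglycan of the cornea, were at least 2.30-fold and at least 2.69-fold lower with Ino80 siRNA. Lce1d, a protein of the cornified skin envelope, was at least 2.17-fold higher, and the transcript AK043740 at least 1.53-fold higher. Over 21 alternatives the log2 differences kept their signs. They came down to -0.61 for Akr1d1, -0.55 for Kera, 0.41 for Lce1d and 0.12 for AK043740. No gene above background on all 4 arrays was called higher with Ino80 siRNA.

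Across all 10 arrays, Ino80 siRNA was below each of the other 8 arrays in 1112 genes (5.38%), 9 of them called between the knockdowns, and above each in 1139 genes (5.51%), 2 of them called. The Ino80b arrays were below all others in 580 genes (2.81%), none of them called, and above all others in 532 (2.58%), of which 5 were called.

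Among genes higher with Ino80 siRNA that missed the threshold, those of lowest p above background on all 4 arrays were Dusp8, Stmn4, Tagln, Ino80b, Hdac7 and the transcript ENSMUST00000079391. Dusp8, a phosphatase of MAP kinases, read -2.48 and -2.58 with Ino80 siRNA and -3.58 and -3.95 with Ino80b siRNA (1.24 ± 0.16, adjusted p = 0.0815). Stmn4, a stathmin that binds tubulin, read 1.43 and 1.87 against 0.16 and 0.12 (1.51 ± 0.20, adjusted p = 0.0874). Hdac7, a class II histone deacetylase, read -1.24 and -1.46 against -2.33 and -2.39 (1.01 ± 0.16, adjusted p = 0.139).

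In each of these 3 genes the Ino80 arrays lay above the Ino80b arrays. ENSMUST00000079391 differed by 1.30 ± 0.20. Spam1, a sperm hyaluronidase, Olah, a fatty acyl hydrolase, the transcript AK078177 and 4933427G23Rik were not above background on either Ino80b array and were at least 1.96-fold, 1.79-fold, 1.47-fold and 1.32-fold higher with Ino80 siRNA, also uncalled. The sign of 4933427G23Rik turned in 1 of 21 alternatives, to -0.003 on the log2 scale.

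**Figure D3:**
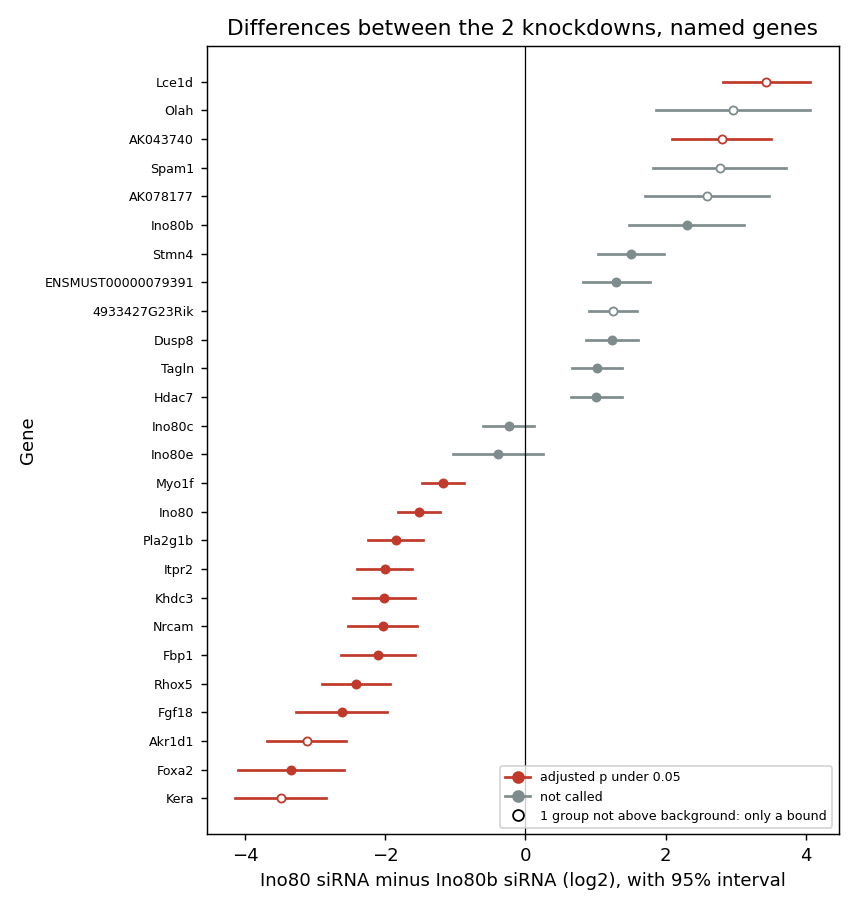
Fitted log2 difference, Ino80 siRNA minus Ino80b siRNA (x axis), with its 95% interval for the 4 siRNA targets and the genes named by rank (y axis); red marks called genes, grey uncalled ones, and open circles genes for which 1 group was not above background, where the fitted value is no measured fold. Called genes lie mostly to the left, from -1.18 for Myo1f to -3.49 for Kera.

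Below the adjusted threshold, 1848 genes (8.95%) had an unadjusted p under 0.05, 1034 (5.01%) of them higher with Ino80 siRNA and 814 (3.94%) lower. This split turned with the scaling: 828 higher and 1107 lower after quantile normalization, 650 and 1732 with normexp, and 1864 and 580 in the authors' deposited table. Differences of 2-fold or more without overlap of the arrays were found in 530 genes higher (2.57%) and 155 lower (0.75%) with Ino80 siRNA. Regardless of overlap, 812 genes (3.9%) differed by 2-fold or more between the group means. Between single arrays, 1402 (6.8%) did so for the 2 Ino80 replicates and 693 (3.4%) for the 2 Ino80b replicates. The arrays of the 2 groups did not overlap in 8405 genes, or 40.7%, with Ino80 siRNA lower in 19.3% and higher in 21.4%. For 2 arrays against 2 without any difference, a fraction of 0.333 would not overlap by the order of the arrays alone.

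Gene lists are therefore described by counts at an unadjusted p under 0.05 and by medians. Among the 29 lists, 3 genes were called, Ino80, Rhox5 and Foxa2. Pluripotency genes leaned lower with Ino80 siRNA: of 41 tested, 7 were lower and 0 higher at that p, against 3.94% and 5.01% of all genes. The median difference was -0.15, against 0.02 over all genes, -0.18 for ribosomal proteins and -0.16 for the respiratory chain. Those of largest difference among the 7 were Gbx2, a homeobox factor of naive cells (-0.74 ± 0.13), and Spp1, the secreted matrix protein osteopontin (-0.68 ± 0.25), neither of them called. Spp1 differed by -0.41 without Ino80 replicate 1 and by -0.46 without Ino80b replicate 2. The list's median was -0.02 in the authors' deposited table and -0.24 without Ino80 replicate 2. Relative to all genes it was -0.07 with normexp and -0.08 after quantile normalization, against -0.17 as reported.

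The core factors had differences near 0. Pou5f1 (Oct4) read 4.61 and 4.65 with Ino80 siRNA and 4.55 and 4.76 with Ino80b siRNA (-0.03, 95% interval from -0.38 to 0.33). Nanog read 1.71 and 1.98 against 1.78 and 2.08 (-0.09, interval from -0.57 to 0.40), and Sox2 differed by -0.09 (-0.52 to 0.33). Their arrays overlapped between the groups. Both groups were below NT in Nanog, which read 2.97 and 3.42 there, and in Esrrb, with 3.08 and 3.45 for Ino80, 3.18 and 3.59 for Ino80b and 4.58 and 5.18 for NT.

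Nodal, the TGF-beta ligand that stem cells secrete, read 3.22 and 2.98 with Ino80 siRNA, 3.99 and 3.70 with Ino80b siRNA and 4.05 and 3.85 with NT (-0.74 ± 0.18, adjusted p = 0.285). It was the only 1 of 24 Nodal pathway genes at that p. Among 28 genes of BMP signalling 3 were lower, Id1 (-1.14 ± 0.42), Id4 (-0.97 ± 0.21) and the ligand Bmp4 (-0.42), and 3 were higher. The largest difference in that list was toward higher, in the ligand Bmp5. It read -4.39 and -5.08 with Ino80 siRNA and -6.02 and -6.34 with Ino80b siRNA, not above background on either Ino80b array. Id1 differed by -0.73 without Ino80b replicate 1, and its other kept probe gave -0.71. In the LIF list 3 of 18 were lower, among them the feedback inhibitor Socs2 (-0.54 ± 0.12), and in the FGF list 4 of 27, among them the receptor Fgfr2 (-0.72 ± 0.13).

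Endoderm genes split in direction. Of 27 tested in the primitive endoderm list, 2 were called lower, Foxa2 and Rhox5, against 0.0581% of all genes. Foxa2 is also counted in the primed epiblast list and Rhox5 in the germ cell list. At the unadjusted p 7 in all were lower and 4 higher, against 3.94% and 5.01% of all genes. The list's median was -0.13, or -0.15 relative to all genes. On that scale it was -0.09 without Ino80 replicate 1, -0.07 with normexp and -0.06 in the authors' deposited table. It turned positive when probes were averaged (0.04). Pdgfra, a growth factor receptor of primitive endoderm, read -6.60 and -6.51 with Ino80 siRNA, not above background on either array, and -4.68 and -5.12 with Ino80b siRNA, at least 2.70-fold apart, against -2.97 and -3.27 with NT. Gata6, a master regulator of that lineage, read -3.54 and -3.16 against -2.17 and -2.18, and -0.15 and -0.31 with NT. Both were uncalled (adjusted p = 0.0743 and 0.151), and 2 other probes of Gata6 gave 0.02 and -0.12. The fitted differences were -1.66 for Pdgfra, which is no measured fold because its Ino80 arrays were not above background, and -1.18 for Gata6. They came down to -0.41 and -0.43 in the alternatives. Another probe of Pdgfra was above background on none of the 4 arrays compared.

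For these genes NT was highest, Ino80b siRNA intermediate and Ino80 siRNA lowest, without overlap among the 3 groups. Sox17 and Sox7, which act with Gata6, differed by -0.63 and -0.59, whereas Gata4 and Dab2 differed by -0.30 and -0.13. The 4 members that were higher were the keratins Krt8 (0.61), Krt18 (0.84) and Krt19 (0.80), and the protease gene Plat (0.57). The summed signal of 6 primitive endoderm markers, in multiples of the 75th percentile, was 0.726 and 0.727 with Ino80 siRNA, 0.996 and 0.985 with Ino80b siRNA and 2.85 and 2.50 with NT.

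In the primitive streak and Wnt list 8 of 35 were lower and 2 higher. Dkk1, a secreted Wnt inhibitor, read -5.21 and -5.15 with Ino80 siRNA, -3.57 and -3.74 with Ino80b siRNA and -1.72 and -2.46 with NT (-1.53 ± 0.23, adjusted p = 0.135). Its other kept probe gave -0.54 with overlapping arrays, and the difference was -0.69 with normexp and -0.63 in the authors' deposited table. Wnt8a, a Wnt ligand, differed by -1.29 ± 0.30. The list's median was -0.02; relative to all genes it was -0.03, -0.30 without Ino80 replicate 1, 0.08 without Ino80 replicate 2, 0.07 without Ino80b replicate 1 and -0.13 without Ino80b replicate 2.

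Germ cell genes held both directions too: of 39, 5 were lower and 3 higher. The 1 called member was Rhox5, which is also counted in the primitive endoderm list. Piwil4, a Piwi protein that binds small RNAs, read -4.98 and -4.97 against -3.57 and -3.34 (-1.53 ± 0.19, adjusted p = 0.0744). Zp3, an egg coat protein, differed by -1.20 ± 0.18, and Figla, an oocyte factor, by 1.93 ± 0.33. None of these 3 was called.

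Of 35 p53 targets, 10 were lower and 2 higher with Ino80 siRNA. The median was -0.20, and it stayed negative relative to all genes, from -0.14 to -0.29, in the alternatives run. Perp, a membrane protein (-0.89 ± 0.31), Plk2, a kinase (-0.66 ± 0.18), and Trp53inp1, a stress protein (-0.63 ± 0.14), were among the 10, and Tgfa, a growth factor, among the 2 (0.79 ± 0.17). Trp53inp1 read 3.29 and 3.42 with Ino80 siRNA, 3.99 and 3.98 with Ino80b siRNA and 3.80 and 3.58 with NT. The kinase inhibitor Cdkn1a, a classic target, differed by -0.15 (95% interval from -0.92 to 0.62), and no member was called.

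Genes of the fibroblast feeder list leaned the other way, with 7 of 31 higher, 0 lower and a median of 0.27. Relative to all genes that median was 0.25, and it was 0.44 without Ino80b replicate 1, 0.10 in the authors' deposited table and 0.09 with normexp. Tagln, an actin-bundling protein of contractile cells, read 4.21 and 4.26 with Ino80 siRNA, 3.31 and 3.12 with Ino80b siRNA and 2.66 and 2.95 with NT (1.02 ± 0.15, adjusted p = 0.134). Cnn1, calponin, and Myl9, a myosin light chain, differed by 1.00 ± 0.16 and 0.99 ± 0.17, with the groups in the same order. Tagln was called in 3 of 22 alternatives, among them the authors' deposited table.

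The summed signal of the 31 fibroblast markers was 91.6 and 87.8 with Ino80 siRNA and 75.5 and 64.8 with Ino80b siRNA, and 28 of the 31 were above background on all 4 arrays. Of the list's defining genes other than Col1a2, which is not given here, Dcn read -2.96 and -2.82 against -4.00 and -3.57. Col1a1 differed by 0.57, Col3a1 by 0.27 and Thy1 by -0.05, while Postn was above background on 1 of 4 arrays. The part of such cells in the result was not tested. The summed signal of 8 stem cell markers was 398 and 494 with Ino80 siRNA and 492 and 575 with Ino80b siRNA, all 8 above background on all 4 arrays. That of 17 blood and macrophage markers was 6.32 and 6.88 against 7.30 and 7.81, with 14 above background on all 4 arrays.

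Epithelial genes of the trophectoderm list were mixed: 9 of 31 were higher and 4 lower, with a median of 0.14. Relative to all genes that median was 0.13, 0.05 without Ino80 replicate 1, 0.20 without Ino80 replicate 2 and 0.08 without Ino80b replicate 2. Krt18, a keratin of simple epithelia, read 4.89 and 5.41 with Ino80 siRNA, 4.14 and 4.49 with Ino80b siRNA and 3.36 and 3.58 with NT. This gene is also counted in the primitive endoderm list. Cdx2, the regulator of the lineage, differed by 0.52, and Lgals3, a galectin, by -0.80 ± 0.18. In the integrated stress response list 5 of 41 were higher and 0 lower, with a median of 0.27. Chac1, a glutathione-degrading target of Atf4, read 2.05 and 1.93 against 0.23 and 1.06 (1.34 ± 0.30), and Atf3 and Trib3 differed by 0.75 ± 0.18 and 0.89 ± 0.24.

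The stress response median rested on single arrays: relative to all genes it was 0.25 with every array, 0.01 without Ino80 replicate 2, 0.09 without Ino80b replicate 1 and 0.40 without Ino80 replicate 1. Of 43 interferon response genes, 5 were lower, led by the RNA sensor Oas1a (-1.18 ± 0.20), and 1 was higher. The list as a whole did not lean lower: 25 of the 43 were above 0, and its median was 0.07. Ifi44 and Tlr3 read higher with Ino80 siRNA but were not above background on either Ino80b array. Zscan4c, a marker of the 2-cell-like state, read 2.47 and 2.00 with Ino80 siRNA, 1.70 and 1.59 with Ino80b siRNA and -0.48 and -0.72 with NT; probes for this family can bind near-identical copies. It was the only 1 of 12 genes of that list at the unadjusted p (0.59 ± 0.22), and it differed by 0.36 without Ino80 replicate 1.

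Ribosomal protein genes differed by little and nearly all in 1 direction, with 76 of 77 below 0, a median of -0.18 and 3 at the unadjusted p. Relative to all genes their median was -0.20, -0.01 after quantile normalization, -0.07 without Ino80 replicate 1 and -0.33 without Ino80 replicate 2. The respiratory chain list was alike, with 58 of 65 below 0 and a median of -0.16, or -0.18 relative to all genes, -0.02 without Ino80 replicate 1 and -0.31 without Ino80 replicate 2. DNA repair (1 of 47 at that p), other remodelling complexes (2 of 55) and cholesterol and fatty acid synthesis (2 of 37) were below the 8.95% of all genes.

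**Figure D4:**
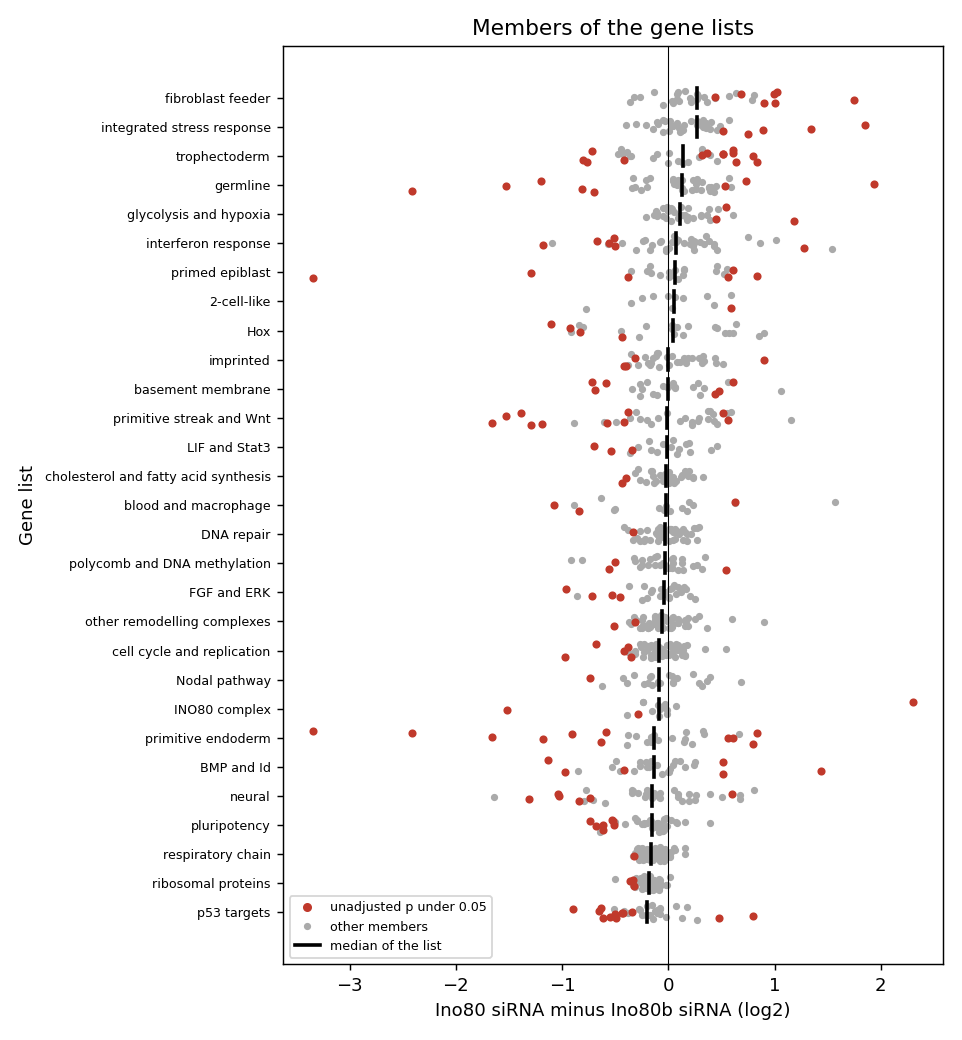
Log2 difference, Ino80 siRNA minus Ino80b siRNA (x axis), of the tested members of 29 gene lists (y axis, ordered by median); red points have an unadjusted p under 0.05, grey points do not, and bars are list medians. Medians run from -0.20 for p53 targets to 0.27 for the fibroblast feeder list.

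**Figure D5:**
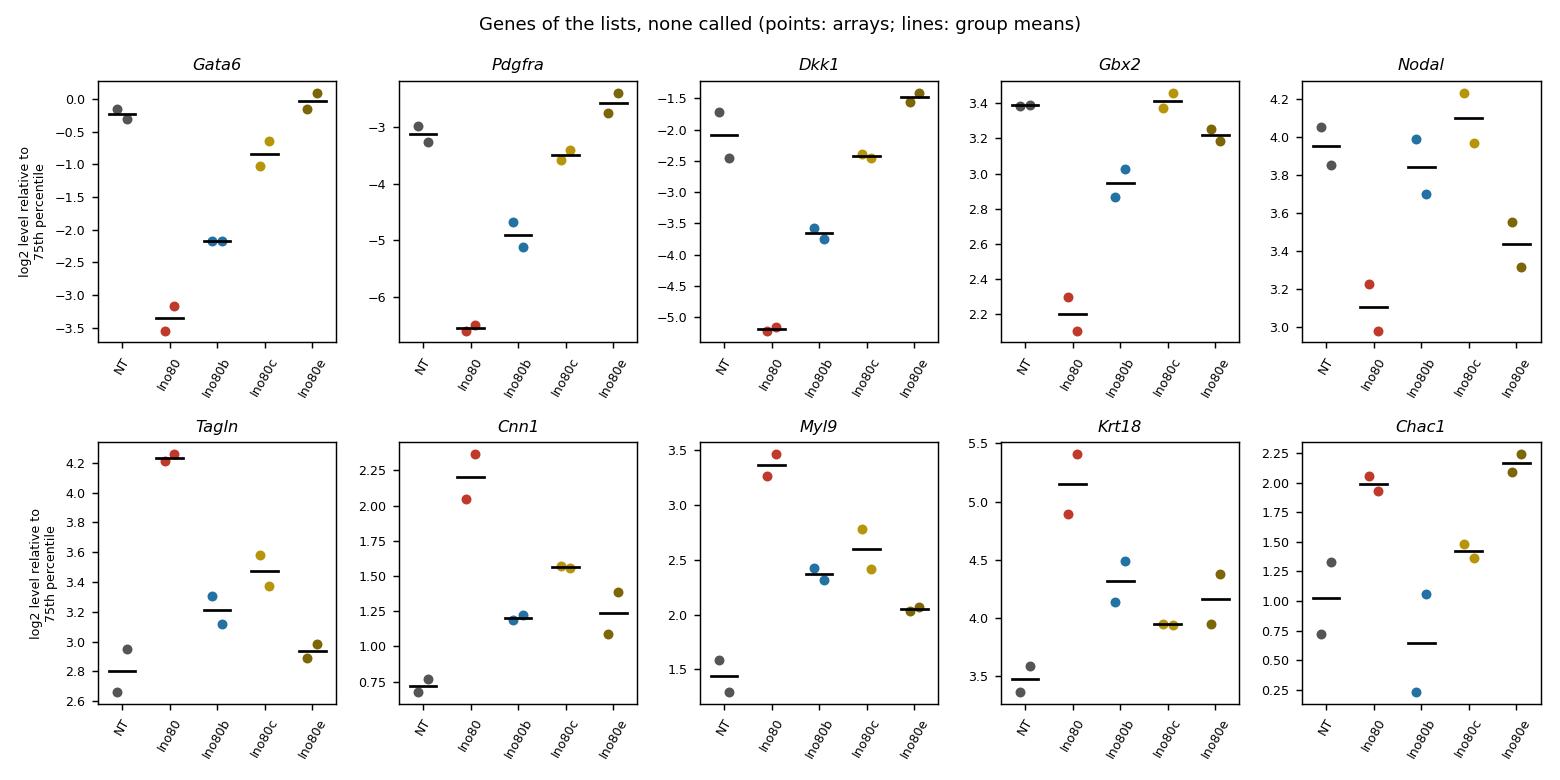
Log2 level relative to the 75th percentile (y axis, own range per panel) on each of the 10 arrays, by siRNA (x axis), for 10 uncalled list genes picked after their values were seen; points are arrays and lines are group means. In the top row the Ino80 arrays are lowest, and for Gata6, Pdgfra and Dkk1 the Ino80b arrays come next; in the bottom row the Ino80 arrays are above the Ino80b arrays.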

How the data were processed

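Total RNA of the 10 samples was hybridised to Agilent expression arrays of 45018 spots, scanned in green although Cy5 is the dye in the labels. Per the file headers, Feature Extraction 9.5.3.1 gave the deposited intensity of each spot as a processed signal, background-subtracted and not scaled between arrays. The authors' deposited table holds log2 values, each column equal to the log2 mean signal plus 1 constant per array; the files do not explain the constants.

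Control and flagged spots were left out (41143 probes), the processed signal was log2 transformed and each array's 75th percentile was subtracted. Probes that passed the scanner's background flag on both arrays of some group were kept (29576), named by accession through RefSeq's GRCm38.p6 gene table (22951 of 41174 probes) or by the array design (18223), and the brightest stood for its gene. All 10 arrays were fitted with limma 3.58.1 in R 4.3.3 by group (5 residual and 2.23 prior degrees of freedom). Where 1 group was dim on both arrays, the bound sets the bright group's mean against, per dim array, the lowest signal above background or the probe's own if higher. Scripts were tested on simulated data.

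Named genes were the 4 targets, up to 12 per direction by call and then by unadjusted p, every called list member and up to 4 list members of largest difference. Other list members named were chosen after their values were seen. The comparison, the 29 lists and the members were chosen with earlier results of these data known. Alternatives covered background correction, normalization, the dim-probe filter, probe averaging, the arrays fitted, the variance prior, array weights, the replicate number and single arrays left out.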

Additional observations from a re-analysis of the deposited data

How the results depend on the processing

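With limma throughout, the 14 called genes became 52 with normexp background correction (9 higher, 43 lower, 10 shared with the 14), 25 after quantile normalization (13 shared), 24 in the authors' deposited table (7 higher and 17 lower, against 2 and 12; 10 shared), 47 with a trended, robust prior (10 shared), and 0 with no filter on dim probes (1925 at an unadjusted p under 0.05) or with only the 4 arrays compared (1768). The list members called, 3 as reported, were 12, 6, 13, 0 and 0 with normexp, the authors' table, the trended prior, no filter and only the 4 arrays. Ino80 kept -1.52 without the filter and with 4 arrays but was not called (adjusted p = 0.0657 and 0.301), and Ino80b was called with normexp (1.61) and the trended prior (2.30). Leaving out each array in turn gave 0 to 9 called genes, 0 to 4 list members called, and -1.62 to -1.42 for Ino80, not called without any 1 knockdown array (adjusted p up to 0.23); a group's lone array was taken to vary as the remaining groups do, and the 2 arrays of a group not compared gave equal counts because either leaves that group no spread. Counts at an unadjusted p under 0.05 where none was called were 1680 without an Ino80c array and 1182 without Ino80b replicate 1. The replicate number as a block gave 55 called genes (13 higher, 42 lower, 13 shared) and 8 list members; with 2 pairs the numbers were not shown to pair the samples (r of the replicates' deviations = 0.264, range over the 10 pairs of groups 0.004 to 0.321). Keeping only genes above background on all 4 arrays, added after seeing the data, gave 15 (10 shared). No named gene that was called changed sign. Signal over background limits the dim genes, and 2 arrays a group limit all others.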
